A study of Mus musculus with 144 samples.

Results

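The wells compared were single retinal cells sorted as microglia 4 days or 2 days after the optic nerve was crushed, an injury that cuts the axons of retinal ganglion cells. There were 32 such wells, 20 from day 4 and 12 from day 2, of 144 wells in the series. All wells, crushed and uncrushed alike, came from Iba1-EGFP mice of C57BL/6 background aged 20 to 22 months. The reporter follows Iba1, a calcium-binding protein of microglia that other macrophages also make. The labels name cell type, tissue, genotype, age and treatment, but no animal, so each day counted as 1 sample, wells were not replicates of a day, and no test was made. Wells lay on plates of 48, of which plates 1 and 2 entered here. Each day filled its own rows of a plate, so day and row cannot be told apart.

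Wells were chosen by depth and by the absence of neutrophil transcripts. Values are reads per 1000000 reads of a well (RPM), obtained from the deposited FPKM and gene lengths, and the reads of a well were recovered from the size of its commonest value. Of 24 day 2 and 36 day 4 wells on plates 1 and 2, 17 and 22 had at least 50000 reads. From these, 5 day 2 and 2 day 4 wells were dropped because S100a8 and S100a9, which encode the abundant calprotectin subunits of neutrophils, were both at 1000 RPM or more. This left 8 day 2 wells on plate 1 and 4 on plate 2, and 10 day 4 wells on each plate. Among day 2 and day 4 wells, the lower of the 2 neutrophil values was at most 115 RPM in a kept well. It was at least 2414 RPM in a dropped one. The lowest depth kept among them was 247163 reads and the highest left out was 5951. The 10 day 4 wells of plate 1 are titled day 4 but carry a treatment tag of day 2. They were grouped by title, and results are given by plate, since plate 2 has no such conflict. A further 25 uncrushed wells that passed the same rule give a control level. They held a median of 3239 genes (1415 to 5684), against 6059.5 at day 4, and had 60079 to 2347721 reads. Of the 11 microglia markers used below they held 0 to 10 (median 6) at 10 or more reads. A low share in uncrushed wells can thus go with few genes found, and the part of gene number was not tested.

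Microglia are the resident macrophages of the retina. After an axon injury they can turn from a surveying state, marked by genes such as P2ry12 and Tmem119, to states in which they divide, answer to interferon, secrete chemokines and cytokines, or take up debris. A secreting cell relies on chaperones that fold new proteins in the endoplasmic reticulum, and an imbalance there switches on the unfolded protein response, whose best known target is Hspa5. Gpr84, named in the title of the series with TNF and IL-1a, is a receptor for medium-chain fatty acids that inflammatory stimuli induce in myeloid cells.

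Depth was alike on plate 1, with a median of 977468 reads at day 2 (657514 to 8065036) and 890148 at day 4 (418216 to 8023493). On plate 2 the day 2 wells were shallower, with a median of 391243 reads (247163 to 802794) against 874300 at day 4 (275472 to 5551423). The number of genes found per well was alike on plate 1 and unlike on plate 2. On plate 1 the median was 5387.5 genes at day 2 (3210 to 9207) and 5144 at day 4 (3019 to 10849). On plate 2 it was 2467.5 at day 2, from wells with 2085, 2419, 2516 and 5939 genes, against 6947 at day 4 (2972 to 10159). Thus 3 of the 4 day 2 wells of plate 2 held fewer genes than any day 4 well. After thinning every well to 50000 reads the medians were 2367.5 and 2213.5 genes on plate 1 and 1240.5 and 2706 on plate 2. A gene missing from a gene-poor well lowers the day 2 mean whatever its function, so plate 1 is given first below and plate 2 beside it.

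**Figure D1:**
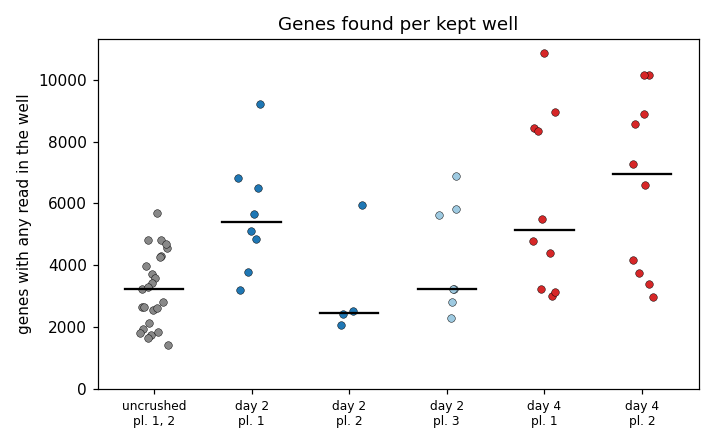
Genes with any read in each kept well (points), with the median of each group (bars), for uncrushed wells of plates 1 and 2 and for day 2 and day 4 wells by plate. Day 2 and day 4 wells of plate 1 cover similar ranges, while 3 day 2 wells of plate 2 lie at 2085 to 2516 genes, below the lowest day 4 well at 2972.

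The labelled cell type was checked against 11 microglia markers. At 10 or more reads, the plate 1 wells held 5 to 11 of them at day 2 (median 8.5) and 4 to 11 at day 4 (median 6.5). On plate 2 the order was the other way, with 2 to 6 at day 2 (median 4) and 3 to 11 at day 4 (median 9.5). Their summed level was 5096 to 33280 RPM at day 2 (median 14829) and 4219 to 32472 RPM at day 4 (median 16906). Erythroid markers were at 0 in all kept wells, and the neutrophil genes Camp and Ngp were at 0 too. The summed level of 10 neutrophil markers was 0 to 827 RPM at day 2 (median 39.6) and 0 to 2152 RPM at day 4 (median 167). Of the 9 markers of monocytes and recruited macrophages, Vcan and F13a1 were at 0 throughout, and the sum was at most 7.18 RPM at day 2. At day 4 that sum was 42966 RPM in the well in row F, column 1 of plate 1 and at most 221 RPM in the others. That well held 42675 RPM of Chil3, a chitinase-like protein of recruited macrophages, 4608 RPM of the macrophage gene Pf4, and 4 of the 11 microglia markers. Counts and calls without it are given below. Of 5 B cell markers, Cd79a and Ms4a1 were at 0, while the sum, in which Ighm alone was counted, had a median of 2.93 RPM at day 2 and 414 RPM at day 4. Markers of retinal cells were present too. The sum of 6 cone markers was 126 to 1797 RPM at day 2 (median 591) and 3.51 to 1142 RPM at day 4 (median 342). That of 13 rod markers reached 599 RPM at day 2 and 731 RPM at day 4, with medians of 2.11 and 2.48. That of 8 markers of Mueller glia or astrocytes reached 289 RPM at day 2 and 5182 RPM at day 4, with medians of 1.07 and 91.2. The part of these other markers in the results was not tested.

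The difference of each gene was day 4 minus day 2 of the mean log2(RPM + 1) over wells, taken within each plate and then averaged over both plates. Of 55364 genes, 4760 had 10 or more reads in at least 20% of the 32 wells and were counted. Since 20 of the 32 wells were day 4, a gene seen only at day 4 passed more easily than one seen only at day 2. The set counted, and the shares and medians over it, thus lean toward genes higher at day 4. A gene was called when its value was at least 2 in size, 4-fold on this scale, with at least 1 in the same direction on each plate. By this rule 658 genes (13.8%) were higher at day 4 and 30 (0.63%) were lower. With no filter, 742 of 20873 genes with any read in these wells were higher and 44 lower, with a median of 0.14. The median over all genes counted was itself 0.94, with 0.17 on plate 1 and 1.76 on plate 2, and 78.0% of genes were above 0. On plate 1 alone, 476 of these genes (10%) were at least 2 higher and 251 (5.27%) at least 2 lower. On plate 2 alone, 2140 (45%) were higher and 125 (2.63%) lower by that amount. When each plate was centred on its own median, 227 genes (4.77%) were called higher and 172 (3.61%) lower, so the share of calls that were higher went from 95.6% to 56.9%. All 30 lower calls remained after centring, as they had to, since both medians taken off were above 0. Of the 658 higher calls, 227 remained. Lists of genes are therefore read against 0.94, and against 0.17 on plate 1. Without the Chil3 well, 718 genes were called higher and 29 lower among 4663 counted. Some plate 1 values turned sign without it: Cx3cr1 went from -0.41 to 0.27, Ldha from 0.12 to -0.22, the median of immediate early genes from 0.07 to -0.20, of toll-like receptor genes from 0.15 to -0.11 and of the RhoA and ROCK list from 0.08 to -0.03. The plate 1 median of NF-kB genes went from 1.30 to 0.70.

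**Figure D2:**
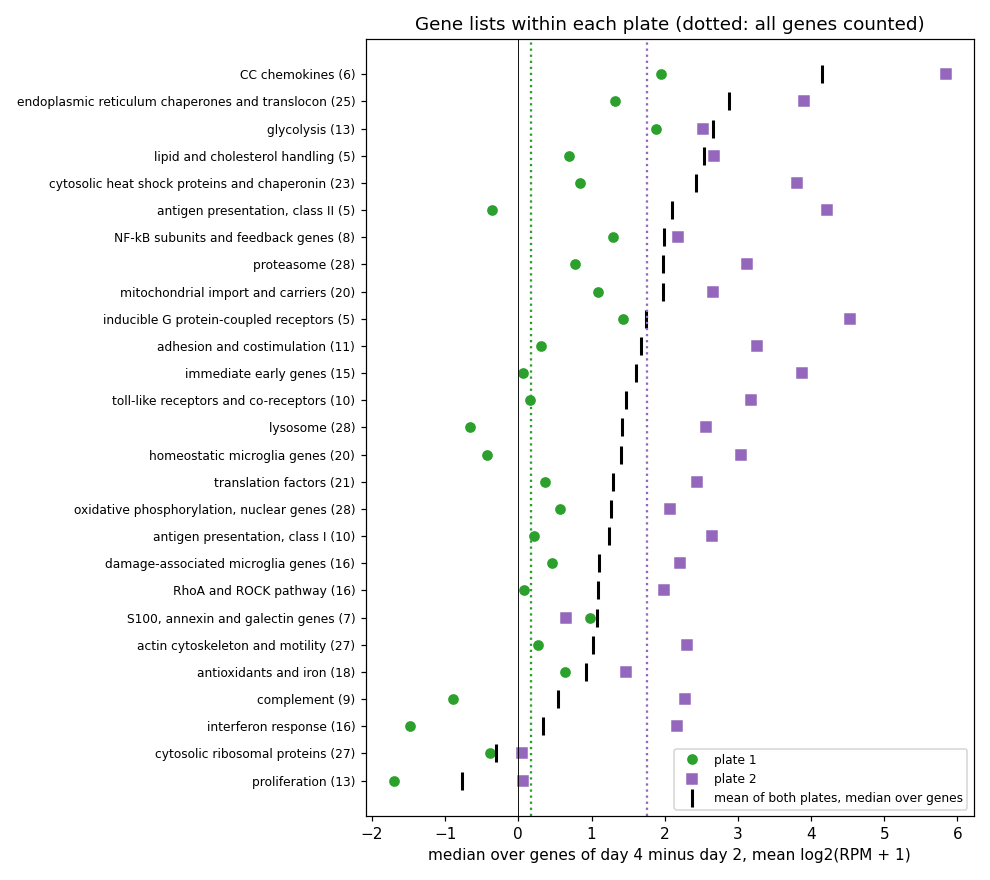
Median difference (day 4 minus day 2 of mean log2(RPM + 1)) over the counted members of each gene list with 5 or more, on plate 1 (circles), on plate 2 (squares) and as the mean of both plates (black bars), with the number of members in brackets. Dotted lines mark the median of all genes counted, 0.17 on plate 1 and 1.76 on plate 2. Chemokine, chaperone and glycolysis lists lie to the right of both lines, and proliferation and ribosomal protein genes to the left of both.

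CC chemokine genes were higher at day 4, with Ccl3, Ccl2 and Ccl4 among the 20 genes of highest difference. All 6 counted CC chemokine genes of a list of 10 were above 0, with a median of 4.14 (1.95 on plate 1, 5.84 on plate 2). Beside 13.8% of all genes counted, 4 were called higher, Ccl2, Ccl3, Ccl4 and Ccl12. After centring, beside 4.77% of all genes, 3 of the 4 were still called, all but Ccl12. These small secreted proteins draw leukocytes to a site: Ccl2 and Ccl12 act on monocytes through Ccr2, and Ccl3 and Ccl4 are macrophage inflammatory proteins. The genes lie on mouse chromosome 11 (GRCm38), Ccl2 at 82035571 to 82037453, Ccl12 at 82101845 to 82103400, Ccl3 at 83647844 to 83649355 and Ccl4 at 83662584 to 83664683.

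Ccl3 was at 0 RPM in 9 of 12 day 2 wells and highest there at 358 RPM, while the day 4 wells ran from 0 to 8181 RPM with a median of 388. The mean log2(RPM + 1) was 0.90 ± 2.45 (SD, 12 wells) at day 2 and 6.68 ± 4.68 (20 wells) at day 4, a difference of 6.01 (4.84 on plate 1, 7.18 on plate 2). At 100 RPM or more it was found in 1 of 12 day 2 wells (8.33%, exact Clopper-Pearson 95% interval 0.211 to 38.5, for counting error over wells only) and 11 of 20 day 4 wells (55%, 31.5 to 76.9). The day 4 wells with Ccl3 were spread over both plates, 5 and 6, and the 4 day 2 wells of plate 2 were all at 0. The ranges overlapped, since 2 day 4 wells were at 0.

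Ccl2 was at 0 RPM in 11 of 12 day 2 wells and at 436 RPM in the other, against a day 4 median of 371 RPM and a highest value of 1792. Its difference was 5.30 (4.40 and 6.19 on plates 1 and 2), and it was found at 100 RPM or more in 12 of 20 day 4 wells, 6 on each plate. In uncrushed wells Ccl2 was found at that level in 0 of 25, with a highest value of 7.66 RPM. Ccl4 ran from 0 to 370 RPM at day 2 (median 3.94) and from 0 to 12742 RPM at day 4 (median 1064). It differed by 5.0 (2.81 and 7.19) and was found in 2 of 12 and 13 of 20 wells. Ccl3 and Ccl4 were each found in 4 of 25 uncrushed wells, so they were not confined to crushed retina.

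Ccl12 behaved differently from the other CC genes, because many day 2 wells of plate 1 already held it. Its day 2 values ran from 3.84 to 18065 RPM (median 536) and its day 4 values from 0 to 17027 RPM (median 3188). It was found at 100 RPM or more in 6 of 8 day 2 wells on plate 1, 1 of 4 on plate 2, and 18 of 20 at day 4, against 3 of 25 uncrushed wells. The difference of 3.29 was made of 1.09 on plate 1 and 5.49 on plate 2. It was not called after centring. Ccl9 and Ccl6, the other counted members, were at 2.20 (0.89 and 3.51) and 2.19 (-0.43 and 4.82) and were not called.

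Of 8 CXC chemokine genes, 2 were counted and both were called higher, beside 13.8% of all genes counted. Cxcl16, a membrane-bound chemokine that is also a scavenger receptor, ran from 0 to 587 RPM at day 2 (median 0.858) and from 0 to 2940 RPM at day 4 (median 434), a difference of 4.31 (2.31 and 6.30). It was found in 3 of 12 and 14 of 20 wells. Cxcl13, a B cell attractant, differed by 2.53 (3.38 and 1.68), but it was found in 5 of 20 day 4 wells and 0 of 12 at day 2, with a highest value of 5409 RPM.

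Chemokine genes occurred together in the same wells. All of Ccl2, Ccl3 and Ccl4 were at 100 RPM or more in 9 of 20 day 4 wells, 1 of 12 day 2 wells and 0 of 25 uncrushed wells. These wells held many genes: among wells with at least 4000 genes, Ccl3 was found in 10 of 14 at day 4 and 1 of 7 at day 2, and below 4000 genes in 1 of 6 and 0 of 5. For Ccl2 the counts were 11 of 14 against 1 of 7 in the gene-rich wells. These gene-rich wells still differed in gene number, with a median of 5939 at day 2 and 8390 at day 4, and its part was not tested. In gene-rich wells of plate 1 alone, the median of the CC list was 3.13, where the median over all genes was 0.39.

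**Figure D3:**
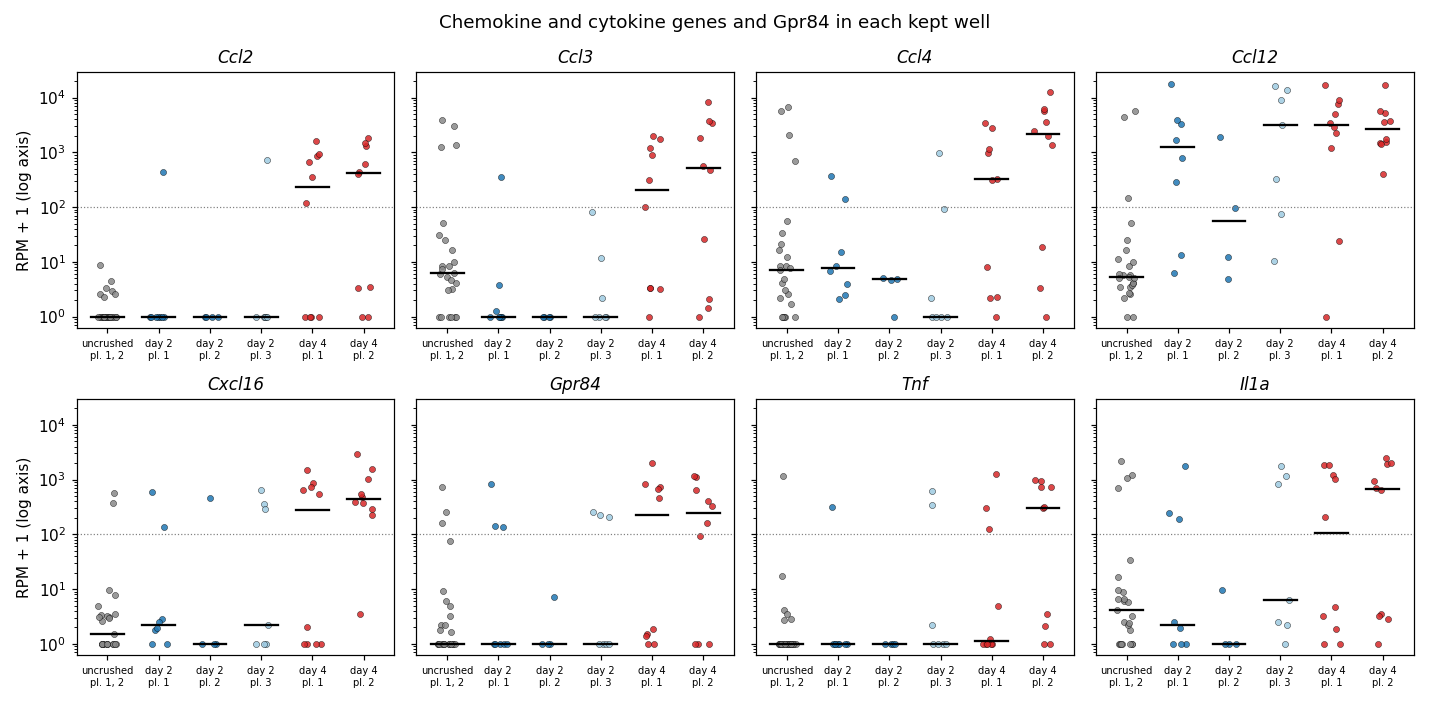
RPM + 1 on a log axis in each kept well (points, bars at the median) for 4 CC chemokine genes, Cxcl16, Gpr84, Tnf and Il1a, in uncrushed wells and in day 2 and day 4 wells by plate. The dotted line marks 100 RPM. Ccl2 is above it in 1 of 12 day 2 wells of plates 1 and 2 and in 12 of 20 day 4 wells, whereas Ccl12 is above it in 7 of the 12 day 2 wells.

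The genes of the series title were higher on both plates. Gpr84 (chromosome 15, 103308235 to 103310612) ran from 0 to 823 RPM at day 2 (median 0) and from 0 to 2030 RPM at day 4 (median 243), with a difference of 3.69 (2.04 and 5.34). It was found at 100 RPM or more in 3 of 12 day 2 wells, all on plate 1, and in 11 of 20 at day 4, 5 on plate 1 and 6 on plate 2. Tnf, which encodes tumour necrosis factor (chromosome 17, 35199381 to 35202007), was at 0 RPM in 11 of 12 day 2 wells and at 316 RPM in the other. At day 4 it ran to 1284 RPM with a median of 3.19, a difference of 3.80 (1.77 and 5.83), and it was found in 3 wells of plate 1 and 6 of plate 2. Il1a, an alarm cytokine of the interleukin 1 family (chromosome 2, 129299610 to 129309972), differed by 3.86 (1.86 and 5.86), with medians of 0.474 and 427 RPM. On plate 1, Gpr84 and Il1a were each found in 3 of 8 day 2 wells and 5 of 10 day 4 wells. Il1b, the other interleukin 1 gene counted, was at 0.09, with 1.36 on plate 1 and -1.19 on plate 2. It was found at 100 RPM or more in 0 of 12 day 2 and 2 of 20 day 4 wells, and its value was -0.36 without the Chil3 well.

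Gpr84, Tnf and Il1a were all found in 7 of 20 day 4 wells, 1 of 12 at day 2 and 0 of 25 uncrushed. At day 4, 10 of the 11 wells with Gpr84 also held at least 2 of Ccl2, Ccl3 and Ccl4, against 2 of the 9 wells without it. At day 2 the counts were 1 of 3 and 0 of 9. Gpr84 itself was found in 9 of 14 day 4 wells with at least 4000 genes and in 2 of 6 others, and the part of gene number in the joint counts was not tested. C3ar1, the receptor of the complement fragment C3a, differed by 3.82 (2.60 and 5.05) and was found in 2 of 12 and 10 of 20 wells.

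Single genes of immune contact were higher, while 2 of the 3 lists below held calls near the share of all genes. Icam1, the ligand of leukocyte integrins, was at 0 to 482 RPM at day 2 (median 0) and 0 to 1694 RPM at day 4 (median 154). It differed by 4.78 (3.89 and 5.68) and was found in 1 of 12 and 13 of 20 wells, 6 and 7 by plate. Clec7a, the beta-glucan receptor and a marker of damage-associated microglia, ran from 0 to 380 RPM at day 2 (median 2.68) and from 0 to 9983 RPM at day 4 (median 558), with a difference of 4.30 (3.33 and 5.27). Slamf9 and Lair1, both receptors of the immunoglobulin superfamily, differed by 4.88 (3.78 and 5.97) and 4.51 (1.85 and 7.16). Tlr2, a receptor of bacterial lipopeptides, differed by 3.85 (1.99 and 5.71) and the costimulatory ligand Cd86 by 2.78 (2.09 and 3.47), the latter not called after centring. In all, 2 of 11 counted adhesion and costimulation genes, 1 of 10 genes of toll-like receptors and 3 of 8 of NF-kB subunits and feedback were called higher, beside 13.8% of all genes counted. The last were Nfkbib, Nfkb1 and Ikbkb at 2.90, 2.73 and 2.10, none of them called after centring.

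Chaperones and translocon genes of the endoplasmic reticulum were mostly higher. Of 25 counted members of a list of 26, 24 were above 0 and 22 were above 0 on both plates, with a median of 2.88 (1.32 on plate 1, 3.90 on plate 2). There were 13 calls higher and 0 lower, against 13.8% of all genes counted, and 8 were also called after centring. Without the Chil3 well the median was 2.83, and in gene-rich wells of plate 1 it was 2.23. Hspa5, which encodes the chaperone BiP (chromosome 2, 34771970 to 34777547), led the list. Its values ran from 0 to 5894 RPM at day 2 (median 3.89) and from 2.12 to 12173 RPM at day 4 (median 4334). The 4 day 2 wells of plate 2 were at 0, 1.92, 13.7 and 4455 RPM. Its mean log2(RPM + 1) was 4.91 ± 4.73 (SD, 12 wells) and 10.23 ± 3.84 (20 wells), and the difference was 5.45 (3.89 and 7.01). It was found at 100 RPM or more in 4 of 12 day 2 wells (33.3%, 9.92 to 65.1) and 16 of 20 day 4 wells (80%, 56.3 to 94.3). Day 4 wells were thus mostly high and day 2 wells mostly low, with overlap in both directions. Uncrushed wells held it in 8 of 25.

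Manf, a secreted stress-responsive neurotrophic factor of the endoplasmic reticulum, ran from 0 to 216 RPM at day 2 (median 1.20) and from 0 to 1775 RPM at day 4 (median 334). It differed by 4.34 (2.64 and 6.04) and was found in 3 of 12 and 15 of 20 wells. Creld2, another secreted stress-responsive factor, was at most 27.3 RPM at day 2 and reached 1254 RPM at day 4, a difference of 4.06 (3.27 and 4.84). Dnajc3, a co-chaperone that restrains the kinase Perk, was at most 1.25 RPM at day 2 and reached 729 RPM at day 4, a difference of 3.79 (2.65 and 4.93). Creld2 was found at 100 RPM or more in 0 of 12 day 2 and 9 of 20 day 4 wells, and Dnajc3 in 0 of 12 and 8 of 20. At least 3 of these 4 genes were found together in 11 of 20 day 4 wells, with all 4 in 6 of those wells and 3 in the other 5. They were found so in 0 of 12 day 2 wells and 1 of 25 uncrushed wells. The day 2 count had to be 0, since neither Creld2 nor Dnajc3 was found in any day 2 well. The 4 genes were also chosen for their large differences between these wells. Creld2 was found in 9 of 14 day 4 wells with at least 4000 genes and in 0 of 6 others. The part of gene number in the joint count was not tested. Other called members were the translocon-associated Ssr1 at 3.41 (2.25 and 4.57) and the disulfide isomerases Pdia6 at 2.95 (3.63 and 2.26) and Pdia4 at 2.88 (1.44 and 4.32). Hsp90b1, the chaperone Grp94, was at 3.27 but with -0.57 on plate 1 and 7.12 on plate 2, and was not called.

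**Figure D4:**
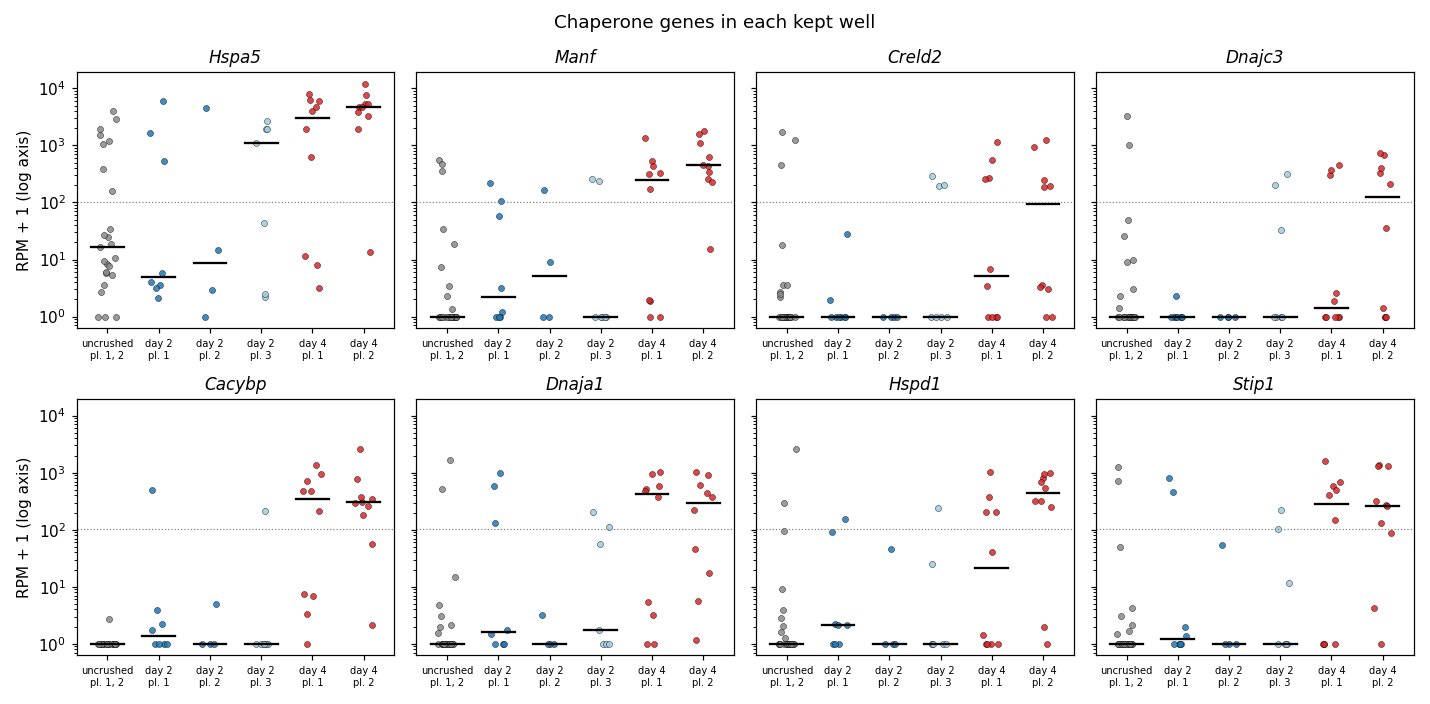
RPM + 1 on a log axis in each kept well (points, bars at the median), in uncrushed wells and in day 2 and day 4 wells by plate. The top row shows 4 genes of the endoplasmic reticulum. The bottom row shows Cacybp, a regulator of ubiquitination, and the chaperone or co-chaperone genes Dnaja1, Hspd1 and Stip1. The dotted line marks 100 RPM. Hspa5 is above it in 4 of 12 day 2 and 16 of 20 day 4 wells of plates 1 and 2, and Creld2 and Dnajc3 in 0 of 12 day 2 wells.

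Genes of this group are known for the ER stress response element, a motif bound by NF-Y and the stress factors Atf6 and Xbp1, so their start regions were read. Promoter sequences of 250 bases before to 50 after the start of transcription came from RefSeq (GRCm38.p6), and 22 of the 26 list members matched an entry. The letters searched, on both strands, were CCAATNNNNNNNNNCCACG. They occurred in 39 of 32851 promoters (0.119%), and 7 list members had them: Hspa5, Hsp90b1, Calr, Canx, Pdia6, Dnajc3 and Creld2. A match is a description and not a site in use. The 250 bases before the start of Hspa5 (chr2:34771840-34772089, GRCm38.p6, plus strand) are shown because it had the largest difference of the list, with the match, which begins 65 bases before the start, in capitals. The start used is that of RefSeq. The gene span given above begins earlier, so part of these bases, with the match, lies inside that span.
Hspa5: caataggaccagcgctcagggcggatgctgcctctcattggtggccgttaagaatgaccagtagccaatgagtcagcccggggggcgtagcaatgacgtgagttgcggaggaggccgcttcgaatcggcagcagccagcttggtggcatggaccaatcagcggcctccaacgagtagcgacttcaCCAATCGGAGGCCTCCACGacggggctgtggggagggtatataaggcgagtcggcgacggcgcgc
The matches of 4 members follow for comparison, read along the strand of the gene, with the fixed letters in capitals. Hspa5, Pdia6 and Dnajc3 read forward and Creld2 in reverse complement.
Hspa5: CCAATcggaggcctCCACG
Pdia6: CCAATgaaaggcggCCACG
Dnajc3: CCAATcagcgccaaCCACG
Creld2: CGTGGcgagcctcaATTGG
Members with the letters were not uniformly higher. Hspa5, Creld2, Dnajc3 and Pdia6 were called higher, while Calr and Canx, chaperones of glycoproteins, were at 1.75 (1.18 and 2.32) and 0.61 (0.65 and 0.57) and were not.

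Cytosolic heat shock proteins and the chaperonin were also mostly higher, with 22 of 23 counted above 0, beside 78.0% of all genes counted. Their median was 2.43 (0.85 on plate 1, 3.81 on plate 2). There were 8 calls higher, beside 13.8%, and 6 of them were also called after centring, beside 4.77%. The largest difference of the list was that of Cacybp, described as a regulator of ubiquitination that also binds calcyclin rather than as a chaperone. Cacybp was at most 497 RPM at day 2 (median 0) and ran from 0 to 2633 RPM at day 4 (median 301). It differed by 5.89 (4.67 and 7.10) and was found in 1 of 12 and 14 of 20 wells, and in 0 of 25 uncrushed wells. Dnaja1, a co-chaperone of Hsp70, differed by 4.38 (2.53 and 6.24). Stip1, which links Hsp70 to Hsp90, differed by 4.29 (2.91 and 5.67). Cct3, a subunit of the chaperonin that folds actin and tubulin, differed by 4.20 (3.05 and 5.36). The constitutive Hspa8 and Hsp90ab1 were at 1.46 (0.90 and 2.02) and 1.46 (-0.24 and 3.17), not called. Hspd1 and Hspe1, the mitochondrial chaperonin pair transcribed in opposite directions from 1 start region, differed by 3.91 (1.85 and 5.97) and 3.73 (2.60 and 4.85). Hspd1 was found in 12 of 20 day 4 and 1 of 12 day 2 wells and Hspe1 in 15 of 20 and 4 of 12. The annotated genes overlap on opposite strands, so reads of one could have been counted for the other.

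The heat shock element, bound by Hsf1, was searched in the form GAANNTTCNNGAA on both strands, which occurred in 198 promoters (0.603%). Of 26 genes, the heat shock list with Hspd1 and Hspe1, 21 had a promoter entry and 3 had the letters: Hsph1, Hspd1 and Hspe1. Hsph1, a nucleotide exchange factor of Hsp70, differed by 2.62 (3.00 and 2.24). The matches of the pair are shown because each is a stretch of the same shared region, read along the strand of its own gene with the fixed letters in capitals.
Hspd1: GAAggTTCtaGAA
Hspe1: GAAccTTCcgGAA

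Other parts of protein production and turnover followed with smaller medians. Among all genes counted, 78.0% were above 0 and 13.8% were called higher (4.77% after centring), with 0.63% called lower. Of 28 proteasome genes, 25 were above 0, with a median of 1.98 (0.78 and 3.13), 9 calls higher and 5 after centring. Psmc1, an ATPase of the regulatory cap, was nearly equal on both plates at 4.62 and 4.68, and was found in 2 of 12 and 13 of 20 wells. Psmb4 and Psmb3, subunits of the core, differed by 4.54 (3.90 and 5.18) and 4.54 (5.29 and 3.79). Psmd2, a scaffold of the cap, was at most 24.3 RPM at day 2 and differed by 3.95 (3.88 and 4.03). Among 21 counted translation factors, 16 were above 0, near the share of all genes, with a median of 1.29 (0.36 and 2.44). There were 9 calls higher, led by Eif4g2 at 4.12 (1.36 and 6.87) and Eif2s1 at 4.07 (2.03 and 6.11), and 1 lower, Eef1b2 at -2.65. Of 20 counted genes of mitochondrial import and carriers, 18 were above 0, with a median of 1.98 (1.09 and 2.66) and 8 calls higher. Tomm22, a receptor of the outer membrane translocase, was at most 4.05 RPM at day 2, reached 610 RPM at day 4 and differed by 4.18 (3.86 and 4.51). Slc25a5, an ADP and ATP carrier, had medians of 974 and 1976 RPM and differed by 3.63 (3.18 and 4.07).

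Glycolysis genes were mostly higher on both plates. All 13 counted members of 16 were above 0, 12 of them on both plates, with a median of 2.66 (1.88 on plate 1, 2.52 on plate 2, where all genes were at 0.17 and 1.76). There were 7 calls higher, beside 13.8% of all genes counted. After centring 2 of them remained, Pfkl and Pkm, beside 4.77%. Pfkl, a phosphofructokinase subunit, was at 0 to 293 RPM at day 2 (median 0) and 0 to 4357 RPM at day 4 (median 246), a difference of 4.42 (2.7 and 6.13). Pkm, the pyruvate kinase gene, was at 0 to 2397 RPM (median 199) and 4.61 to 6175 RPM (median 1208), a difference of 3.55 (2.28 and 4.82). Tpi1, triose phosphate isomerase, differed by 3.04 (4.30 and 1.78), and Pgk1, phosphoglycerate kinase, by 2.56 (2.90 and 2.22). Ldha, lactate dehydrogenase A, was at 3.12, but with 0.12 on plate 1 and 6.11 on plate 2, and was not called. Gapdh was nearly level at 0.44 (-0.17 and 1.05). Oxidative phosphorylation genes lay nearer to all genes, with 21 of 28 above 0 and a median of 1.27 (0.57 and 2.07). They had 5 calls higher and 1 lower, beside 13.8% and 0.63% of all genes counted. The lower call was Cox8a, and Ndufb5 and Atp5g2, also called lower, were not in the list.

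The gene with the largest difference was Hnrnpc, which encodes a nuclear RNA-binding protein (chromosome 14, 52073377 to 52104028). It was at 0 in 6 of 12 day 2 wells and at most 365 RPM there, and ran from 0 to 3220 RPM at day 4 with a median of 385. Its mean log2(RPM + 1) was 1.73 ± 2.85 (12 wells) and 7.46 ± 3.74 (20 wells), and the difference was 6.07 (4.13 and 8.0). It was found at 100 RPM or more in 1 of 12 day 2 wells, 16 of 20 day 4 wells and 3 of 25 uncrushed wells. Akr1a1, an aldehyde reductase, was the only gene among the 20 highest found at that level in all 20 day 4 wells, at 421 to 7875 RPM (median 1436), against 6 of 12 day 2 wells at 0 to 3452 RPM (median 386). Its difference was 4.53 (4.96 and 4.09). The others of the 20 highest were Atp6ap2, an accessory subunit of the vacuolar proton pump, at 5.06 (2.51 and 7.60), the nucleoside diphosphate kinase gene Nme1 at 5.01 (4.86 and 5.17), the mitochondrial ribosomal gene Mrpl42 at 4.54 (4.04 and 5.03), the fatty acid elongase gene Elovl1 at 4.51 (4.76 and 4.27) and the vitamin B12 carrier gene Tcn2 at 4.47 (2.62 and 6.33). Nme1 shares the read-through model Gm20390 with its neighbour and close relative Nme2, which was called lower, and Elovl1 overlaps Cdc20 on the other strand. Manf overlaps Dcaf1 and Rbm15b, Cxcl16 overlaps Zmynd15, and Dnaja1 overlaps Smu1. How the counting split such reads is not given in the sources used here, so those values are uncertain.

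Genes of the RhoA and ROCK pathway and of actin lay close to the background of all genes. Of 16 counted pathway genes of 24, 12 were above 0, with a median of 1.09 (0.08 on plate 1, 1.99 on plate 2). After centring 1 was called higher and 2 lower, beside 4.77% and 3.61% of all genes counted. Before centring 4 were called higher and 0 lower, beside 13.8% and 0.63%. The calls were Arhgef2, a RhoA exchange factor bound to microtubules, at 3.71 (1.39 and 6.03), the myosin light chain Myl6 at 3.25 (1.08 and 5.41), Rhob at 3.08 (1.11 and 5.05) and the GDP-dissociation inhibitor gene Arhgdia at 2.08 (1.02 and 3.14). Arhgef2 was at most 10.1 RPM at day 2 and was found at 100 RPM or more in 0 of 12 day 2 wells and 8 of 20 at day 4, 7 of them on plate 2. Rhoa and Rock1 were at 0.86 (-0.22 and 1.94) and 1.31 (0.48 and 2.14), not called. Of 27 actin genes, 19 were above 0 with a median of 1.02 (0.27 and 2.31), and 5 were called higher, among them Actr3 of the Arp2/3 complex at 3.88 (1.22 and 6.55) and the capping protein gene Capza2 at 3.66 (2.24 and 5.08).

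Genes that mark resting microglia did not separate the days in 1 direction. All 20 were counted and 14 were above 0. Calls numbered 0 either way, beside 13.8% of all genes counted higher and 0.63% lower. After centring there were 0 higher and 1 lower. The median was 1.41 but -0.43 on plate 1 and 3.04 on plate 2. Tmem119 showed the contrast: the 4 day 2 wells of plate 2 were at 1.92, 3.83, 9.97 and 12.1 RPM, while 6 of 8 day 2 wells of plate 1 were at 100 RPM or more. Its difference was -2.58 on plate 1 and 6.84 on plate 2. P2ry12, a purinergic receptor, had the same opposition at -4.15 and 3.41. Selplg and Cx3cr1 were at -0.70 and -0.41 on plate 1 and 5.54 and 4.52 on plate 2. Of 16 counted damage-associated genes, 13 were above 0, with a median of 1.10 (0.46 and 2.21) and 3 calls, beside 13.8% of all genes counted: Clec7a, the lipid receptor Trem2 at 3.37 (1.42 and 5.32) and the secreted matrix protein Spp1 at 2.97 (2.60 and 3.34). Spp1 was at most 13.1 RPM at day 2 and was found in 5 of 20 day 4 wells at up to 17240 RPM. Cst7, often named with them, was at -0.52 (-0.98 and -0.07).

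Lysosome, antigen presentation and complement genes likewise rested on plate 2. Medians on plates 1 and 2 were -0.66 and 2.57 for 28 lysosome genes, -0.36 and 4.21 for 5 class II genes, 0.21 and 2.65 for 10 class I genes and -0.90 and 2.27 for 9 complement genes. Calls higher numbered 3, 1, 2 and 1, near the 13.8% of all genes counted. Ctss, a lysosomal protease that prepares class II molecules, was found in all wells on both days, with medians of 14788 RPM at day 2 and 8120 RPM at day 4 and a difference of -0.77 (-0.84 and -0.71). Immediate early genes had medians of 0.07 and 3.87 on plates 1 and 2, with 15 of 15 above 0. The 2 called higher, near the 13.8% of all genes counted, were Klf6 at 4.30 (3.89 and 4.71) and Ier3 at 2.87 (1.87 and 3.87). Without the Chil3 well the named calls of H2-K1, H2-T23, Lamp2, Rhob, Gadl1 and Atp5g2 were lost, and Cd48, Atp6v1f, Fcrls and Itgam were among those called.

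Proliferation genes were lower on plate 1. Of 13 counted of 26, 3 were above 0 and 10 below, with a median of -0.76 (-1.70 on plate 1, 0.06 on plate 2), against 0.94 for all genes. There was 1 call in each direction, beside 13.8% of all genes counted higher and 0.63% lower. After centring 0 were called higher and 5 lower, beside 4.77% and 3.61%. Rrm1, the large subunit of ribonucleotide reductase, which makes the building blocks of DNA, ran from 0 to 3050 RPM at day 2 (median 134) and from 0 to 6227 RPM at day 4 (median 0.840). The highest value of all was thus in a day 4 well. Its mean log2(RPM + 1) was 6.08 ± 4.31 (12 wells) and 2.50 ± 3.60 (20 wells), the difference was -3.43 (-4.48 and -2.37), and it was found at 100 RPM or more in 7 of 12 and 4 of 20 wells. Stmn1, a microtubule regulator of dividing cells, was at -1.69 (-2.17 and -1.21), with medians of 616 and 101 RPM. Mki67, the standard marker of cycling cells, was at -1.43 (-2.32 and -0.53) and thymidine kinase Tk1 at -1.46 (-1.95 and -0.97). Mcm6, a replication helicase subunit, was called the other way at 2.25 (2.32 and 2.17). When wells holding at least 3 markers of neutrophils or of rods were left out, the list median was 0.13, and when the wells with S100a8 and S100a9 were kept it was 0.37.

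Interferon response genes had opposite medians on the plates, -1.48 on plate 1 and 2.17 on plate 2, with 10 of 16 counted genes above 0. There were 3 calls lower against 0.63% of all genes counted, Ddx58, Rtp4 and Oasl2, and 1 higher, Lgals3bp at 2.91 (1.72 and 4.10). Ddx58 encodes the viral RNA sensor RIG-I. It ran from 0 to 18219 RPM at day 2 (median 3.76) and from 0 to 159 RPM at day 4 (median 0), with -2.87 (-2.77 and -2.98). It was found in 4 of 12 and 2 of 20 wells. Rtp4, an interferon-induced chaperone of receptors, was at -2.30 (-2.56 and -2.04), found in 5 of 12 and 5 of 20 wells, and Oasl2 at -2.28 (-1.95 and -2.61), found in 4 of 12 and 3 of 20. The values of all 3 thus turned on a few day 2 wells with very high levels. Leaving out single day 2 wells of plate 2 moved Ddx58 to between -3.65 and -1.29, Rtp4 to between -3.46 and -1.20 and Oasl2 to between -3.22 and -1.27.

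Among further lower genes, Cox8a was the 1 call lower of the oxidative phosphorylation list. Ppp1r7, a regulator of protein phosphatase 1, ran from 0 to 2698 RPM at day 2 (median 41) and from 0 to 114 RPM at day 4 (median 0.103), with -3.09 (-3.83 and -2.34), found in 5 of 12 and 1 of 20 wells. Slc48a1, a heme transporter of the lysosome, was found in 5 of 12 and 0 of 20 wells, at -2.56 (-3.30 and -1.82). The lowest value was that of Ndufb5, a subunit of respiratory complex I, at -3.51 (-1.77 and -5.24). Atp5g2, a subunit of the ATP synthase ring, was at -3.22 (-1.17 and -5.27), and Cox8a, of cytochrome oxidase, at -2.61 (-2.23 and -3.0). Ndufb5 and Atp5g2 were not members of the oxidative phosphorylation list, though they encode parts of the same machinery. Cox8a was present in nearly all wells, at 97.4 to 2664 RPM at day 2 (median 533) and 0 to 777 RPM at day 4 (median 293). The 4 day 2 wells of plate 2 held it at 195, 654, 1719 and 2664 RPM although they held few other genes. Hmgb1, a chromatin protein and alarm signal, was at -2.34 (-3.16 and -1.52) and Nme2 at -3.11 (-1.48 and -4.74).

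The other named lower genes were Commd1 and the overlapping Commd1b at -2.74 and -2.56, Trappc1 at -2.66, Ino80e and the overlapping Doc2a at -2.39 and -2.30, Sord at -2.33, Gadl1 at -2.25 and Grk2 at -2.20. Cytosolic ribosomal protein genes were nearly level, with 13 of 27 above 0 and a median of -0.31 (-0.38 on plate 1, 0.04 on plate 2), below the median of all genes on both plates. Rps9 was the 1 called, beside 0.63% of all genes counted called lower, at -2.12 (-1.75 and -2.49). It had medians of 965 RPM at day 2 and 523 RPM at day 4 and was found in all 12 and 17 of 20 wells.

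**Figure D5:**
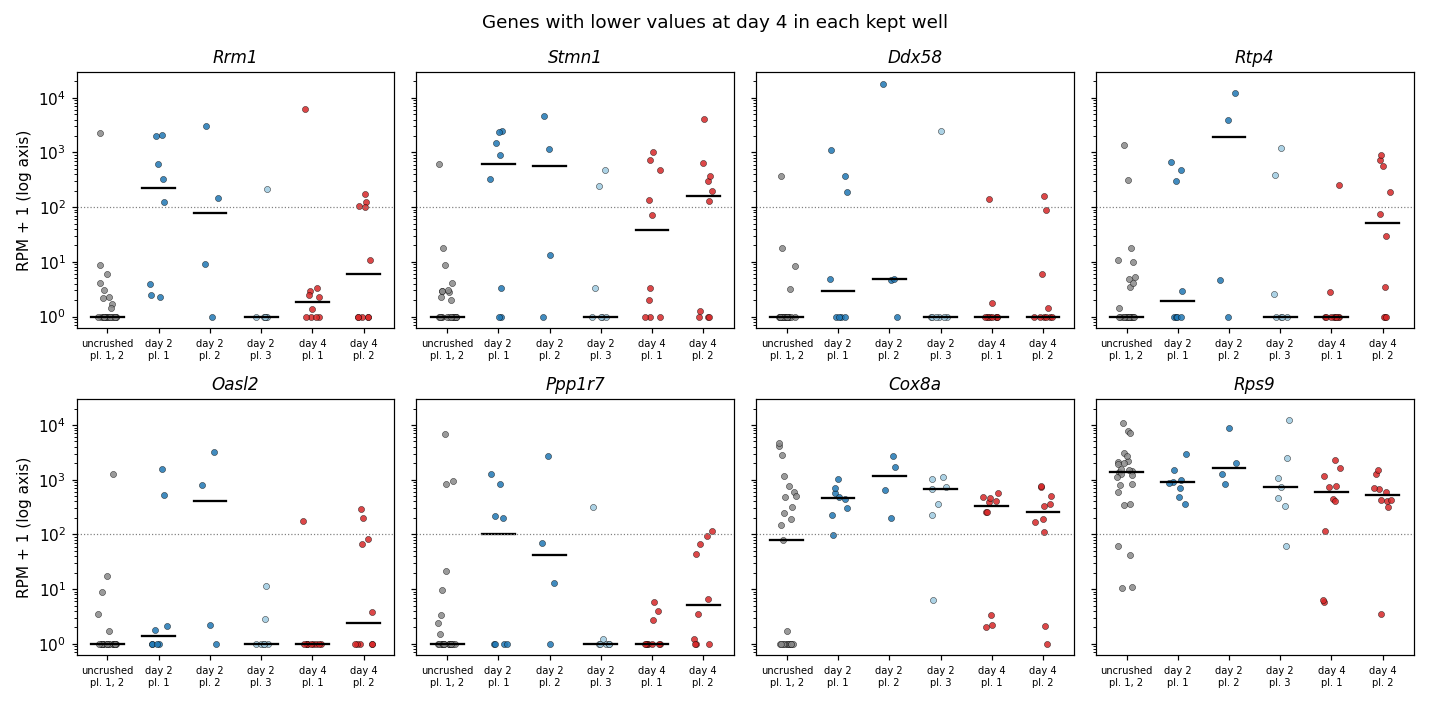
RPM + 1 on a log axis in each kept well (points, bars at the median) for 8 genes with lower values at day 4, in uncrushed wells and in day 2 and day 4 wells by plate. The dotted line marks 100 RPM. Rrm1 is above it in 7 of 12 day 2 wells of plates 1 and 2 and in 4 of 20 day 4 wells, and in 1 of 7 day 2 wells of plate 3.

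Each of the 32 wells was left out in turn. Ccl2, Ccl3, Ccl4, Gpr84, Il1a, Hspa5, Manf, Creld2, Dnajc3, Cacybp and Hnrnpc were called in all 32 repeats, and Hspa5 lay between 4.72 and 6.74. Most of these genes were named for large differences in the same wells, so leaving out 1 well could hardly undo their calls. Tnf was called in 31 (3.38 to 4.32), Trem2 in 30 (2.83 to 4.44), Ccl12 in 22 (2.69 to 4.13), Mcm6 in 23 (1.82 to 3.52) and Arhgdia in 18 (1.13 to 3.15). The 4 day 2 wells of plate 2 carried most weight for lower genes. Without the well of 2419 genes Rrm1 was at -2.41, Ppp1r7 at -2.07, Trappc1 at -1.64, Sord at -1.21 and Grk2 at -0.74. Without the well of 2085 genes Ino80e was at -1.31 and Doc2a at -1.27, and without the well of 2516 genes Slc48a1 was at -1.37.

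Plate 3 held 7 day 2 wells that passed the same rule, with 2310 to 6890 genes (median 3245), and these were set beside the same 20 day 4 wells. The day 4 wells enter both comparisons, so the values are not independent. Of the 658 genes called higher, 296 (45%) were at 2 or more against these wells, as were 18.8% of all genes counted. Some values were near those above: Ccl3 was at 5.11, Ccl2 at 4.49, Ccl4 at 5.20, Cacybp at 5.87 and Manf at 4.78, with Ccl3 at 0 to 80.8 RPM in the plate 3 wells and Ccl2 found in 1 of 7. Others were much smaller. Hspa5 was at 2.90, with 4 of 7 plate 3 wells holding it, Cxcl16 at 2.85, Gpr84 at 2.19, Tnf at 1.63 and Il1a at 0.95. Creld2 was at 1.07, Hspe1 at 0.89, Dnajc3 at 0.87, Atp6ap2 at 0.85, Ccl12 at 0.70, Psmb4 at 0.47, Trem2 at 0.43 and Psmb3 at -0.12. The size of these differences thus moved with the plate of the day 2 wells. The list medians were 4.38 for CC chemokines, 2.91 for glycolysis, 2.84 for heat shock proteins and 2.17 for the endoplasmic reticulum, where all genes were at 0.86. They were 1.77 for CXC chemokines (3.42 with plates 1 and 2), 1.06 for cytokines (3.80), 0.78 for NF-kB genes (2.00), 0.35 for adhesion and costimulation (1.67) and 0.10 for toll-like receptors (1.48). Proliferation stood at 1.40 in place of -0.76, with Rrm1 at 1.40 and Stmn1 at 2.23. Of the genes lower above, Eef1b2 was at 2.38, Nme2 at 0.60, Ppp1r7 at 0.55, Rtp4 at 0.04, Ddx58 at -0.37, Rps9 at -1.36, Cox8a at -1.70 and Atp5g2 at -2.12. The direction of many lower genes thus differed with the plate of the day 2 wells, and plate and animal cannot be told apart there.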

How the data were processed

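Single cells were sorted into wells by fluorescence, lysed, and their cDNA amplified and tagmented with Nextera XT, per the labels' protocols. The deposited values are FPKM per gene and well, with a gene length column, made by the authors with Trim Galore 0.4.4, Trimmomatic 0.36, cutadapt 1.16, STAR 2.7.2b and featureCounts 1.6.1 on GRCm38.p6, per the submitters' processing notes, which give no order. Counting strand is not given in the sources used here, and the libraries have no molecular identifiers. RPM was FPKM times length over 1000, and the reads of a well were 1000000 over its most frequent positive RPM. Of values under 100 reads, 35.3% were whole within 0.01, so no count test was run. No 2 wells were identical, and the highest correlation between wells was 0.53.

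Groups came from sample titles. The labels name no animal, so there is no test, and intervals cover counting error over wells only. Genes needed 10 reads in 20% of wells. The genes named were the 20 highest and 20 lowest past the fold, the up to 4 members of each list with the largest differences in size, and Gpr84, Tnf, Il1a and Il1b. Predicted genes and ribosomal protein genes were left out of both rankings. Calr, Canx, Ccl6, Ccl9, Cst7, Gapdh, Hsp90ab1, Hsp90b1, Hspa8, Hsph1, Ighm, Mki67, P2ry12, Pdia4, Pdia6, Pgk1, Rhoa, Rock1 and Ssr1 were named after their values were seen. The wells and lists were chosen with earlier results of these data known. The calculation was tested on simulated data. Tables were handled in pandas 2.3.3 with numpy 2.4.6 under Python 3.11.15, intervals came from scipy 1.17.1, and plots from matplotlib 3.10.9.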

Additional observations from a re-analysis of the deposited data

How the results depend on the processing

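Against 658 genes higher and 30 lower, leaving out each well in turn gave 517 to 800 higher, 19 to 54 lower and a median over all genes of 0.80 to 1.20. Plate 1 alone gave 497 higher and 279 lower, plate 2 alone 2506 and 127, and plates 1 to 3 together, where a call was needed on every plate and plate 3 holds 2 day 4 wells, 46 and 34. A pseudocount of 10 RPM gave 143 and 4, and of 50 RPM 16 and 0. Detection in 40% of wells left 2164 genes, with 290 and 16, and no filter gave 742 and 44. Thinning to 50000 reads gave 663 and 65, log2(FPKM + 1) 415 and 24, keeping the wells with S100a8 and S100a9 655 and 15, and leaving out wells with at least 3 markers of neutrophils or of rods 637 and 50. Centring gave 227 and 172. Pooling plates gave 709 and 43. A minimum of 200000 reads kept the same wells. Alternatives chosen after seeing the data were wells of plate 1 with at least 4000 genes, 1118 and 380, and day 2 wells of plate 3, 847 and 67. The median over all genes was 0.15, 1.90, -0.01, 0.42, 0.16, 0.14, 0.76, 0.85, 0.73, 1.06, 0.80, -0.03, 0.70, 0.39 and 0.86 for plate 1, plate 2, plates 1 to 3, both pseudocounts, no filter, the 40% filter, thinning, FPKM, kept wells, fewer markers, centring, pooling, gene-rich plate 1 wells and plate 3. The cause of these shifts was not tested.

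Over 96 named genes past the fold and 16 alternatives, 1512 of 1536 values kept their sign. Several alternatives could not change it. The genes were called for the same direction on both plates, so either plate alone had to keep it. Detection filters do not alter the value of a gene, and the higher read minimum kept the same wells. All 24 values with the other sign came from alternatives that used plate 3 wells. The count is therefore no measure of how steady the signs are. Of the list medians, 31 values had the other sign. With plates 1 to 3 these included -0.19 for RhoA and ROCK, -0.39 for actin and -0.19 for homeostatic genes, while the proteasome was at 0.011 and the endoplasmic reticulum at 0.83. With plates 1 to 3, Myl6 was at -0.071, H2-K1 at -0.86, Gpx1 at -0.31 and Arhgdia at -0.39. With day 2 wells of plate 3, Psmb3 was at -0.12, Eif3b at -0.10, Lgals9 at -0.089, Lamp2 at -0.10, H2-K1 at -0.89 and H2-T23 at -0.64. Turned the other way there were Gadl1 at 1.40, Oasl2 at 1.2, Doc2a at 0.18, Rtp4 at 0.039, Sord at 1.10, Hmgb1 at 0.51, Ino80e at 0.42, Commd1b at 0.37, Eef1b2 at 2.38, Trappc1 at 0.33, Commd1 at 0.77, Ppp1r7 at 0.55, Nme2 at 0.60 and Rrm1 at 1.40.

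No paired analysis was possible because the labels tie no well of day 2 to a well of day 4 and no result comes from a test. Leaving out mitochondrial genes was not run, since the values used here hold no gene of the mitochondrial genome. Reads without molecular identifiers are not independent molecules, and no depth correction tells a gene that is off from one missed in amplification.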
